A study of Mus musculus with 8 samples.

Results

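Transforming growth factor beta (TGF-beta) signalling was described in mouse alveolar macrophages, which live in the air sacs and clear particles and surfactant, through 10 genes: the ligands Tgfb1 and Tgfb2, the receptors Tgfbr1 and Tgfbr2, the signal transducer Smad3, the inhibitory Smads Smad6 and Smad7, and the regulators Pmepa1, Skil and Ski. The genes were chosen by name, and each matched exactly 1 of the 37310 rows of the deposited count table. All 10 passed the filter on low counts. Bulk RNA sequencing had been done on 8 libraries, 2 in each of 4 groups. Transplanted expanded cells (texAM) were C57BL/6 alveolar macrophages expanded in culture, injected (I.T. in the labels) into wild-type C57Bl/6-Ly5.1 mice and sorted from whole lung 4 months later as CD45.2+ cells. Expanded cells (exAM) were C57BL/6 alveolar macrophages after 2 months of culture, unsorted. Transplanted cells (tAM) were C57BL/6 alveolar macrophages labelled as transplanted without the word expanded, and were also sorted as CD45.2+ cells after 4 months in a recipient lung. Host cells (HostAM) were CD45.1+ alveolar macrophages of the C57Bl/6-Ly5.1 strain. The lung groups shared a SiglecF+ CD11c+ gate, the donor and recipient mice were 8 weeks old at the start, and each library was a pool of 3 mice or 3 cultures. Whether the HostAM came from mice given cells or given PBS is not stated for these libraries, so strain, transfer and age cannot be told apart in comparisons with them.

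As background, TGF-beta is secreted in a latent complex, is released locally, and binds a receptor of 2 chains, TGFBR2 and TGFBR1. TGFBR1 phosphorylates SMAD2 and SMAD3, which enter the nucleus with SMAD4 and switch on target genes, among them inhibitors of the pathway itself. In the mouse lung, autocrine TGF-beta is required for alveolar macrophages to develop and persist, upstream of the nuclear receptor PPAR-gamma.

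Library totals ran from 6546272 to 9154128 counts. Of 12 alveolar macrophage markers none was at 0 in any library, and their summed level was 3657 to 4012 CPM (counts scaled to library size) in texAM, 4465 to 5350 CPM in exAM, 4165 to 4324 CPM in tAM and at least 3942 CPM in HostAM. Of the 12 markers 6 were higher in exAM than in tAM (Marco, Fabp4, Adgre1, Car4, Chil3 and Mrc1) and 2 were lower (Siglecf and Krt79). Over all tested genes 21.5% were higher and 23.2% lower in this comparison. The marker Krt79 was low in exAM, at 1.73 ± 0.703 CPM against 199 ± 9.85 CPM in tAM (SD, n = 2 each). Of 6 markers of monocytes and other macrophages 1 was higher and 4 were lower in exAM than in tAM, beside the same shares. The integrin Itgam was at 974 ± 215 CPM in exAM, against 47.4 ± 0.541 CPM in tAM. Ccr2 was at 3.95 ± 1.21 CPM in exAM, against 22.1 ± 2.14 CPM in tAM. Cdh5 and Pdgfra, markers of endothelium and stroma, were at 23.2 ± 7.70 and 30.5 ± 15.5 CPM in exAM, against 0 counts in tAM. Kdr and Dcn, from the same lists, had totals of 28 and 39 counts over the exAM libraries, and 0 over those of tAM. Of 3 tested endothelium markers 2 were higher and 0 lower in exAM, and of 2 tested stroma markers 2 were higher. Cdh5, Kdr, Pdgfra and Dcn passed the low-count filter only through exAM, the group where they are high. These counts could therefore hardly have come out otherwise. Cldn5, Tie1, Col1a1, Col1a2, Col3a1, Pdgfrb and Lum were at 0 counts in exAM. Ddx3y, on the Y chromosome, was counted 55 and 59 times in exAM and never in the lung libraries. Xist, made by female cells, was counted 4669 and 6850 times in exAM and 12061 to 15435 times in the lung libraries. Both were thus counted in exAM, and the sex of the pools, sorting and culture cannot be told apart. No gene in any library exceeded 1.94 counts per base of its longest transcript, and the highest value per library lay between 1.84 and 1.94 whatever its size. Among genes at 0.5 to 1 count per base the median absolute log2 fold change of exAM over tAM was 0.40, against 0.84 among genes under 0.25. For texAM over tAM the same medians were 0.10 and 0.27, so such a gap was not particular to exAM over tAM. Tgfb1, Tgfbr1, Tgfbr2, Skil and Ski averaged 0.514 to 0.789 counts per base, so small fold changes of these genes are read below beside their raw counts. The part of the ceiling in their values was not tested.

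In exAM, Pmepa1, Tgfb2, Smad3 and Ski were lower than in tAM and Smad6, Smad7 and Tgfbr2 were higher, while Tgfb1, Tgfbr1 and Skil did not pass the test. Thus 3 genes were higher and 4 lower of 10, beside 44.7% of all 14537 tested genes called in this comparison (21.5% higher and 23.2% lower). Among the higher genes Smad6 passed the low-count filter only through exAM. The calls come from edgeR's quasi-likelihood test on all 8 libraries, with p adjusted across the tested genes by Benjamini and Hochberg's method and a threshold of 0.05. Of all called genes 48% were higher in exAM, and 34.5% were when library totals alone set the scale, which moved the median of all genes to -0.29 on the log2 scale. Genes with more reads were called more often, with 62.6% called among those at 0.5 to 1 count per base and 41.2% among those under 0.25. Libraries of exAM and tAM did not overlap for 9 of the 10 genes, as for 76.4% of all genes. The median log2 fold change was -0.13 over the 10 genes and -0.09 over all tested genes. After 4 months in a lung none of the 10 was called between texAM and tAM, beside 0.00688% of all tested genes.

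**Figure D1:**
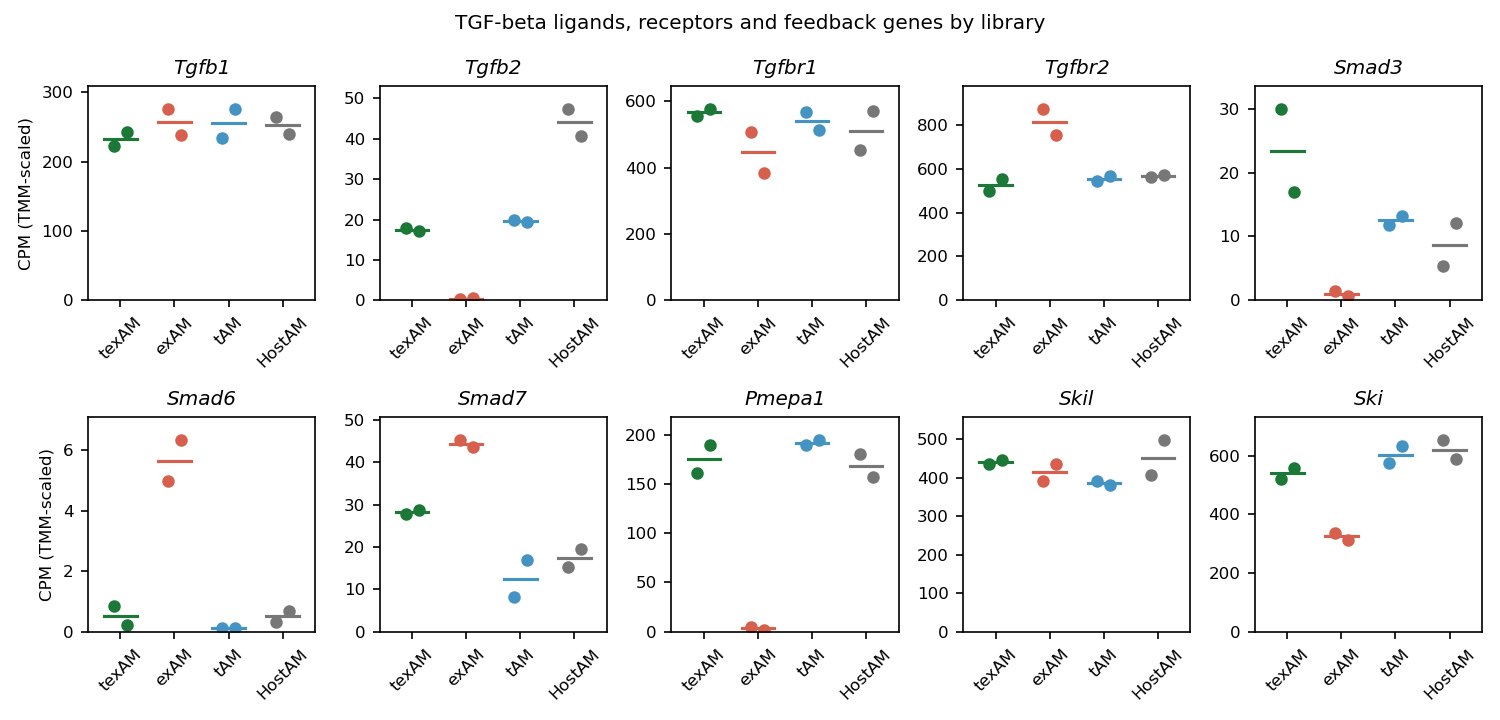
Level of each gene in CPM (vertical axes, each from 0) in the 8 libraries; points are libraries, lines the means of 2 libraries, and groups run texAM, exAM, tAM, HostAM. Pmepa1 stands at 2.16 and 4.63 CPM in exAM, against 157 to 194 CPM in the 6 lung libraries, and Tgfb1 overlaps in all groups.

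The ligand Tgfb1, the main TGF-beta isoform of leukocytes (ENSMUSG00000002603, GRCm38 chromosome 7, 25687002 to 25705077), stood at 222 and 242 CPM in texAM, 276 and 238 CPM in exAM, 235 and 275 CPM in tAM, and 265 and 239 CPM in HostAM. The 4 groups overlapped. The log2 fold change was 0.01 ± 0.12 (SE) for exAM over tAM (adjusted p = 0.943, edgeR) and -0.13 ± 0.12 for texAM over tAM (adjusted p = 0.817). Its raw counts were lower in exAM, 1608 and 1543 against 2021 and 2195 in tAM, and the exAM libraries were the smallest. On library totals alone the log2 fold change of exAM over tAM was -0.19, also not called.

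Tgfb2, a second isoform made mostly by epithelial, neural and mesenchymal cells (ENSMUSG00000039239, chromosome 1, 186622792 to 186705989), had the widest range of group means among the 10 genes, 6.10 on the log2 scale. It stood at 17.9 and 17.1 CPM in texAM, 0.343 and 0.463 CPM in exAM, 19.8 and 19.3 CPM in tAM, and 47.4 and 40.7 CPM in HostAM. The exAM values rested on 2 and 3 counts, both texAM and tAM libraries lay close together, and the HostAM libraries lay above them without overlap. On the log2 scale the change was -5.54 ± 0.39 for exAM over tAM (adjusted p = 2.82e-06) and 5.38 ± 0.39 for texAM over exAM (adjusted p = 3.72e-06). For texAM over HostAM it was -1.33 ± 0.24, which just missed the threshold (adjusted p = 0.0537), and for tAM over HostAM -1.17 ± 0.24 (adjusted p = 0.130). DESeq2's Wald test called both (adjusted p = 0.00311 and 0.0281). Without a low-count filter both were called too, and a minimum of 50 counts called the first.

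Tgfb2 lies on the chromosome of Ptprc, the CD45 gene whose allele differs between donor and host (chromosome 1, 138062861 to 138175708). Of 38 other tested genes within 5 Mb of Tgfb2, 0 were called for texAM over HostAM and 0 for tAM over HostAM. Of 48 within 5 Mb of Ptprc 2 (4.17%) and 1 (2.08%) were called. Over all tested genes 0.33% and 0.0413% were called in these comparisons, so 0 of 38 could hardly have come out otherwise. The part of strain in the Tgfb2 level was not tested. An antisense gene covers 2.14% of the Tgfb2 exon bases, and the library method is not stated to keep strand.

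The 5 genes whose pattern over the 8 libraries was most like that of Tgfb2, by root mean square difference of centred log2 CPM, were Hba-a2 (0.39), Adgrg1 (0.39), Catsperg1 (0.41), Cbr2 (0.44) and Adam22 (0.44). Hba-a2 encodes alpha globin of red cells, and Cbr2 is a carbonyl reductase abundant in airway club cells. Adgrg1, Catsperg1 and Adam22 were not assigned to a cell type. Adam22 was the highest of the 5 in the lung groups, with a mean log2 CPM of 7.16 in tAM and 2.35 in exAM. Markers of airway epithelium followed a similar order. Their summed level over 6 genes was 363 to 509 CPM in texAM, 3.71 to 7.20 CPM in exAM, 388 to 442 CPM in tAM and 599 to 660 CPM in HostAM, and Scgb3a2, Bpifa1 and Cyp2f2 were at 0 counts in exAM. Among 7 platelet and red cell markers the sum was 52.8 to 60.7 CPM in texAM, 0 to 1.03 CPM in exAM, 42.9 to 46.7 CPM in tAM and 65.7 to 76.7 CPM in HostAM. Their part in the Tgfb2 level was not tested. In bulk libraries fewer cells of a type and less RNA per cell cannot be told apart.

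**Figure D2:**
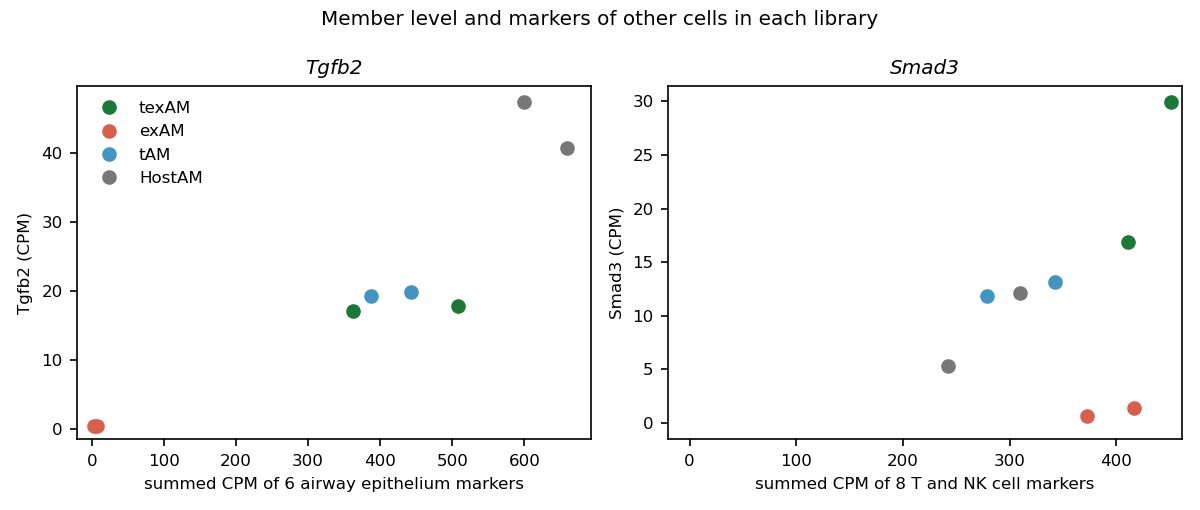
Tgfb2 (left) and Smad3 (right) in CPM against the summed CPM of 6 airway epithelium markers and of 8 T and NK cell markers, 1 point per library, coloured by group. On the left the exAM libraries lie near the origin and the HostAM libraries highest on both axes, and on the right the exAM libraries have marker sums of 373 and 416 CPM with Smad3 at most 1.37 CPM.

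Tgfbr1, the type I receptor kinase (ENSMUSG00000007613, chromosome 4, 47353222 to 47414931), stood at 556 and 577 CPM in texAM, 508.5 and 384 CPM in exAM, 566 and 514 CPM in tAM, and 453 and 570.3 CPM in HostAM. The exAM libraries lay under those of texAM and tAM and overlapped HostAM. Its raw counts were 5322 and 5056 in texAM, 2965 and 2485 in exAM, 4877 and 4102 in tAM, and 4109 and 4954 in HostAM. The log2 fold change of exAM over tAM was -0.28 ± 0.14 (adjusted p = 0.129), and that of texAM over exAM 0.34 ± 0.14 (adjusted p = 0.0676). Across alternative settings the texAM over exAM change was called in 6 of 12, exAM over tAM in 3 and exAM over HostAM in 2. Without exAM replicate 1 the texAM over exAM change was 0.53.

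Tgfbr2, the ligand-binding type II receptor (ENSMUSG00000032440, chromosome 9, 116084293 to 116175360), stood at 497 and 555 CPM in texAM, 873 and 753 CPM in exAM, 545 and 566 CPM in tAM, and 561 and 570 CPM in HostAM. Both exAM libraries lay above the 6 lung libraries. On the log2 scale the change was 0.55 ± 0.09 for exAM over tAM (adjusted p = 0.000786) and -0.63 ± 0.09 for texAM over exAM (adjusted p = 0.000357). Raw counts were 4761 and 4863 in texAM, 5089 and 4875 in exAM, 4697 and 4510 in tAM, and 5094 and 4950 in HostAM. In raw counts exAM lay above texAM and tAM by a smaller margin and overlapped HostAM, and read density lay within 0.557 to 0.630 counts per base in all 8 libraries. The part of the ceiling in this call was not tested.

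**Figure D3:**
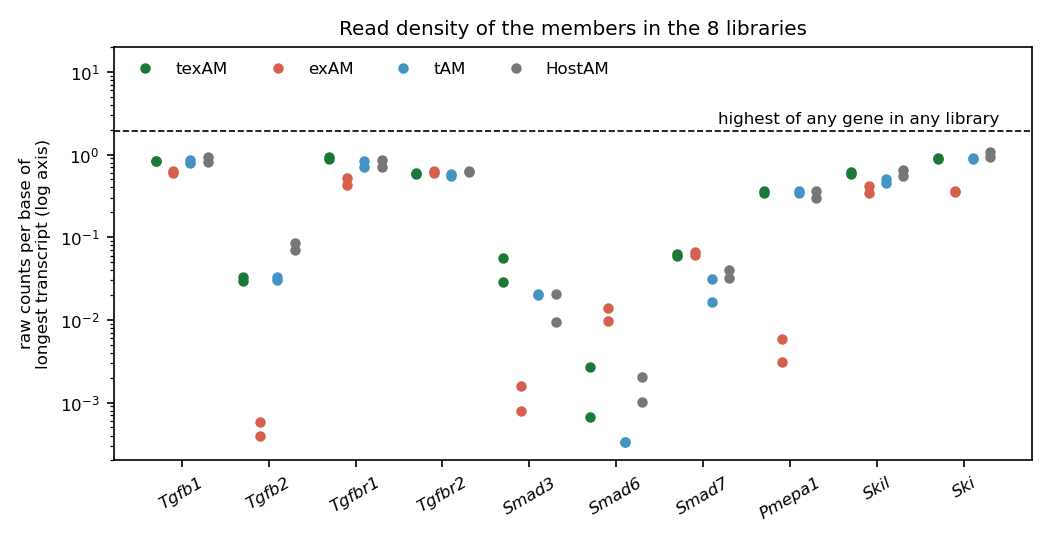
Raw counts per base of the longest transcript (vertical log axis) for the 10 genes in the 8 libraries, coloured by group, with a dashed line at 1.94, the highest value of any gene in any library. Tgfb1, Tgfbr1, Tgfbr2, Skil and Ski lie between 0.340 and 1.07, and Smad6 and the exAM values of Tgfb2 and Smad3 lie far below it.

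Smad3, the receptor-activated transcription factor of the pathway (ENSMUSG00000032402, chromosome 9, 63646767 to 63757994), stood at 30.0 and 16.9 CPM in texAM, 1.37 and 0.618 CPM in exAM, 11.8 and 13.2 CPM in tAM, and 5.29 and 12.1 CPM in HostAM. The exAM libraries, with 8 and 4 counts, lay below all others, and the texAM pair was spread widely above tAM. On the log2 scale the change was -3.65 ± 0.60 for exAM over tAM (adjusted p = 0.000755) and 4.56 ± 0.60 for texAM over exAM (adjusted p = 0.000194). For texAM over tAM it was 0.91 ± 0.46 and was not called (adjusted p = 0.667). Without exAM replicate 1 the change was -4.29 for exAM over tAM and 5.18 for texAM over exAM.

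Lymphocytes express Smad3 too. The summed level of 8 T and NK cell markers was 411 to 451 CPM in texAM, 373 to 416 CPM in exAM, 279 to 342 CPM in tAM and 243 to 310.1 CPM in HostAM. Most of the exAM sum was Il7r, at 344 ± 54.0 CPM, and the CD3 chain genes Cd3e, Cd3d and Cd3g had 0 counts there. The largest single part of the lung sums was Cd2, at 202 ± 9.60 CPM in texAM, 224 ± 9.13 CPM in tAM and 212 ± 0.971 CPM in HostAM, against 47.0 ± 20.2 CPM in exAM. The sum therefore does not follow the Cd3 genes. Cd3e stood at 71.4 ± 15.0 CPM in texAM, 41.8 ± 21.4 CPM in tAM and 20.5 ± 10.8 CPM in HostAM (SD, n = 2 each). The part of lymphocyte RNA in the Smad3 level was not tested. Smad2, the partner of Smad3 downstream of the same receptor, averaged 162 ± 3.94 CPM in exAM, against 110.0 ± 33.8 CPM in tAM, a log2 fold change of 0.56 ± 0.19 (adjusted p = 0.0318).

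Smad6, an inhibitory Smad that acts mostly on bone morphogenetic protein (BMP) signalling (ENSMUSG00000036867, chromosome 9, 63953076 to 64022059), was the scarcest of the 10. It had 8 and 2 counts in texAM, 29 and 41 in exAM, 1 and 1 in tAM, and 3 and 6 in HostAM, or at most 6.33 CPM. It passed the low-count filter only through exAM, the group where it is high. The ratio of exAM over tAM was 47.2 with a counting interval of 12.6 to 397 (95%, exact, counting error only), and the test called it (adjusted p = 0.00296). It also fell in texAM relative to exAM (log2 fold change -3.36 ± 0.94, adjusted p = 0.0149), a call lost without texAM replicate 2 (adjusted p = 0.105), exAM replicate 1 (adjusted p = 0.0737) or exAM replicate 2 (adjusted p = 0.118). It ran from -4.54 without texAM replicate 1 to -2.74 without texAM replicate 2. For exAM over HostAM the log2 fold change was 3.43 ± 0.94 (adjusted p = 0.0138), a call lost without exAM replicate 1 (adjusted p = 0.0696), exAM replicate 2 (adjusted p = 0.115) or HostAM replicate 1 (adjusted p = 0.0710), and 4.04 without HostAM replicate 2.

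Smad7, the inhibitory Smad that binds TGFBR1 and recruits ubiquitin ligases to it (ENSMUSG00000025880, chromosome 18, 75367529 to 75395935), stood at 27.9 and 28.6 CPM in texAM, 45.1 and 43.5 CPM in exAM, 8.12 and 16.9 CPM in tAM, and 15.2 and 19.6 CPM in HostAM. The order ran exAM, texAM, then HostAM and tAM, which overlapped. The log2 fold change was 1.83 ± 0.33 for exAM over tAM (adjusted p = 0.00129; 1.39 without tAM replicate 1 and 2.45 without tAM replicate 2) and 1.35 ± 0.32 for exAM over HostAM (adjusted p = 0.00644). The texAM libraries lay between exAM and the other lung groups without overlap, and no change of texAM was called. Relative to tAM, texAM differed by 1.18 ± 0.32 on the log2 scale (unadjusted p = 0.00430, adjusted p = 0.438 in edgeR's fit), with 1139 genes, 7.84% of those tested, at an unadjusted p under 0.05. Only the alternative without a low-count filter called it (adjusted p = 0.0200). Against exAM the change of texAM was -0.65 ± 0.31 (adjusted p = 0.115), and 1 of 12 alternatives called it.

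Pmepa1, a membrane protein induced by TGF-beta that holds SMAD2 and SMAD3 away from the receptor (ENSMUSG00000038400, chromosome 2, 173224458 to 173276533), stood at 161 and 190 CPM in texAM, 4.63 and 2.16 CPM in exAM, 189 and 194 CPM in tAM, and 181 and 157 CPM in HostAM. Both exAM libraries were far below the 6 lung libraries, which overlapped among the groups except for tAM over HostAM. The log2 fold change was -5.83 ± 0.24 for exAM over tAM (adjusted p = 1.33e-07) and 5.71 ± 0.24 for texAM over exAM (adjusted p = 1.60e-07). For texAM over tAM it was -0.13 ± 0.16 (adjusted p = 0.881). Without exAM replicate 1 the log2 fold change was -6.44 for exAM over tAM and 6.30 for texAM over exAM, and without exAM replicate 2 it was -5.35 and 5.21.

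Skil, which encodes the co-repressor SnoN and is itself a TGF-beta target (ENSMUSG00000027660, chromosome 3, 31095058 to 31122577), stood at 436 and 446 CPM in texAM, 392 and 434 CPM in exAM, 392 and 379 CPM in tAM, and 407 and 496 CPM in HostAM. Raw counts were 4176 and 3911 in texAM, 2287 and 2814 in exAM, 3379 and 3025 in tAM, and 3694 and 4310 in HostAM. In CPM the 8 libraries ran from 379 to 496, and the log2 fold change of exAM over tAM was 0.10 ± 0.10 (adjusted p = 0.449), or -0.10 on library totals alone. Skil was called in 1 of 12 alternatives for texAM over exAM and in 1 of 12 for exAM over HostAM. Ski, a related co-repressor of SMAD complexes (ENSMUSG00000029050, chromosome 4, 155154075 to 155222592), stood at 521 and 558 CPM in texAM, 336 and 313 CPM in exAM, 574 and 631 CPM in tAM, and 652 and 589 CPM in HostAM. Both exAM libraries lay below the 6 lung libraries, in raw counts too, at 1960 and 2030 against 4888 to 5911. On the log2 scale the change was -0.89 ± 0.09 for exAM over tAM (adjusted p = 3.13e-05) and 0.73 ± 0.09 for texAM over exAM (adjusted p = 0.000124).

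**Figure D4:**
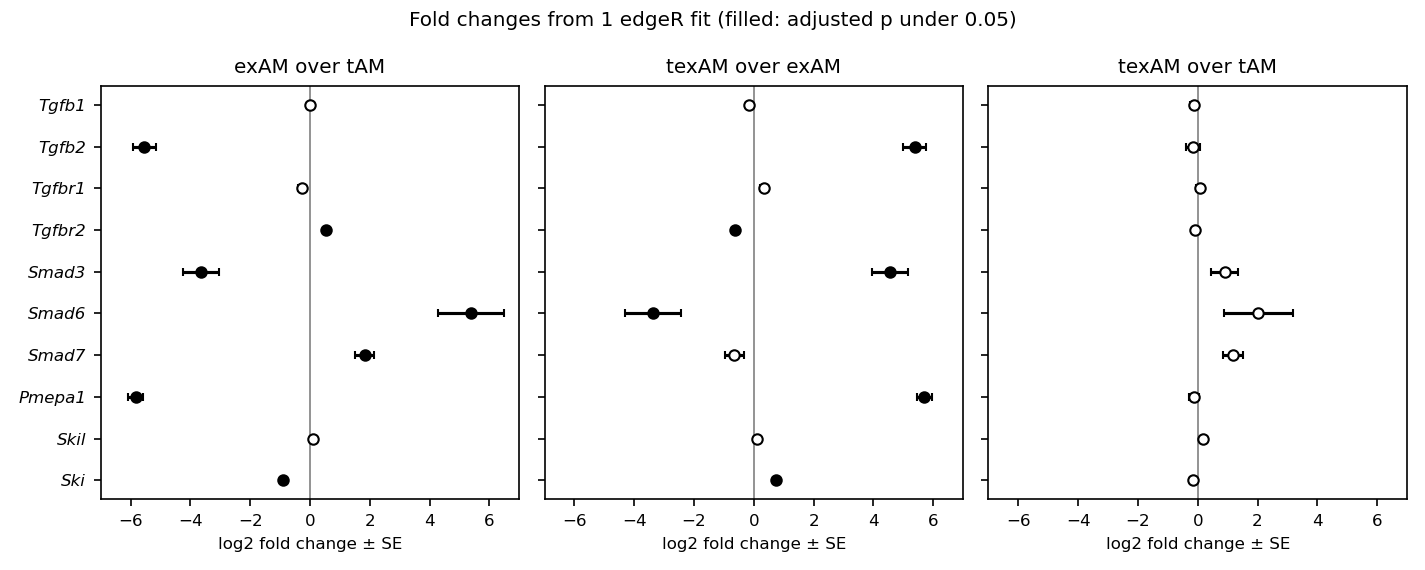
Log2 fold change with its SE (horizontal axis) of the 10 genes for exAM over tAM, texAM over exAM and texAM over tAM, from 1 edgeR fit of 8 libraries; filled points have an adjusted p under 0.05. Pmepa1 lies at -5.83, 5.71 and -0.13 in the 3 panels, and no point in the texAM over tAM panel is filled.

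Promoter sequences are shown for the members with the largest moves for which RefSeq gives a promoter window (GRCm38.p6), since Tgfb2 and Smad3 were the lower and Smad6 the higher of them in exAM. Windows were matched for 7 of the 10 genes, and Smad7, Pmepa1 and Skil had none in the table. Each sequence runs 5′ to 3′ on the minus strand and covers the 250 bases before the annotated start. Capitals mark CAGAC (or its complement GTCTG) and the palindrome GTCTAGAC, letters that SMAD3 and SMAD4 are known to bind, searched on both strands.
Tgfb2, chr1:186705990-186706239: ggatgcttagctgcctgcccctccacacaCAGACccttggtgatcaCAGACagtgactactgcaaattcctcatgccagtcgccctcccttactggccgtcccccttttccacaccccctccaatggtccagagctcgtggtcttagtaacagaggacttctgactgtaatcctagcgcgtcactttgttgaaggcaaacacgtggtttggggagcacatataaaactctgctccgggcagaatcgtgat
Smad3, chr9:63757995-63758244: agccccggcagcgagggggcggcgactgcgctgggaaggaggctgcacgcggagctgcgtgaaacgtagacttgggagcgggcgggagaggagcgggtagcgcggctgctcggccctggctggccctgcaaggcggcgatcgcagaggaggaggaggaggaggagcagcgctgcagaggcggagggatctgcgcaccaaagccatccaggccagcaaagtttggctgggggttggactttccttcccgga
Smad6, chr9:64022056-64022309: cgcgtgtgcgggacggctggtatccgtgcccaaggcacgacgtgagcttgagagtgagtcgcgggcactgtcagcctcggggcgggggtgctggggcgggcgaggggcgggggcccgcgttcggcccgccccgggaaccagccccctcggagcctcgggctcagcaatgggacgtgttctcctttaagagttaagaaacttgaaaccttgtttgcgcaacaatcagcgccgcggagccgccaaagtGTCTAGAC
The Tgfb2 stretch holds CAGAC at 221 and 204 bases before the start, the Smad3 stretch holds neither motif, and the palindrome at Smad6 spans the start, with 4 bases past it. CAGAC or its complement was in the upstream 250 bases of 42.1% of 27025 genes with a window. The palindrome was in the 300-base window of 57 of them (0.211%). A match describes letters only, and neither presence nor absence of a motif speaks to binding.

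Per length the order of the genes changed between culture and lung. In exAM the highest were Tgfbr2 at 100.4 ± 10.5 and Tgfb1 at 99.9 ± 10.3 CPM per kilobase of longest transcript, then Tgfbr1 at 77.5 ± 15.3, Skil at 61.5 ± 4.45 and Ski at 58.8 ± 2.91 (SD, n = 2). Smad7 followed at 10.4 ± 0.258 and Smad6 at 1.90 ± 0.323, ahead of Pmepa1 at 0.748 ± 0.385, Smad3 at 0.195 ± 0.105 and Tgfb2 at 0.0788 ± 0.0166. In tAM the highest were Ski at 109 ± 7.33, Tgfb1 at 99.1 ± 11.2 and Tgfbr1 at 93.9 ± 6.35 CPM per kilobase, and Pmepa1 stood at 42.2 ± 0.783. There Tgfb2, at 3.83 ± 0.0744, came before Smad7 at 2.93 ± 1.46 and Smad3 at 2.46 ± 0.184, and Smad6 came last at 0.0406 ± 0.00222. Tgfbr2 and Tgfb1 in exAM lay within each other's SD. No test compared genes with each other.

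The comparison of texAM with exAM set expanded cells sorted from a lung against unsorted cultured cells. It shares the exAM libraries with that of exAM and tAM. Lung residence, sorting and the sex of the pools cannot be told apart in it. In texAM Tgfb2, Smad3, Pmepa1 and Ski were higher and Tgfbr2 and Smad6 lower than in exAM, 4 and 2 of 10, beside 43.7% of all genes called (23.2% higher and 20.5% lower), and 9 did not overlap, beside 77.5% of all genes. The median log2 fold change was 0.22 over the 10 genes and 0.11 over all. In exAM against HostAM 3 genes were higher and 4 lower, beside 44.1% of all genes called (20.9% higher and 23.3% lower), and 7 did not overlap, beside 73.7% of all genes, with medians of -0.16 and -0.08. These were Tgfbr2, Smad6 and Smad7 above, and Tgfb2, Smad3, Pmepa1 and Ski below, with Pmepa1 at a log2 fold change of -5.65 ± 0.24 (adjusted p = 1.64e-07). In both comparisons the counts include Smad6, which passed the low-count filter only through exAM, where it is high.

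Between the lung groups edgeR's test called 0 of the 10 genes. For texAM against tAM 0.00688% of all genes were called, 6 of the 10 did not overlap beside 42.1% of all genes, 1 of the 10 was at an unadjusted p under 0.05 and DESeq2's Wald test called 0. For texAM against HostAM 0.33% of all genes were called (0.248% higher and 0.0825% lower), 5 of the 10 did not overlap beside 42.8% of all genes, 3 of the 10 were at an unadjusted p under 0.05 and DESeq2 called 1, Tgfb2. Those 3 were Tgfb2, Smad3 at a log2 fold change of 1.43 ± 0.47 (adjusted p = 0.226) and Ski at -0.20 ± 0.09 (adjusted p = 0.365). For tAM against HostAM 0.0413% of all genes were called (0.0206% higher and 0.0206% lower), 4 of the 10 did not overlap beside 37.8% of all genes, 2 of the 10 were at an unadjusted p under 0.05 and DESeq2 called 1, again Tgfb2. With 2 pools per group, a missed threshold does not show equal levels.

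The wider pathway was described by 8 lists of 93 symbols, 91 of them in the table and 82 tested. In exAM against tAM 32 were higher and 21 lower (64.6% called, beside 44.7% of all genes), and in texAM against exAM 21 were higher and 35 lower (68.3%, beside 43.7%). In exAM against HostAM 32 were higher and 26 lower (70.7%, beside 44.1%). Between texAM and tAM, texAM and HostAM, and tAM and HostAM 0 were called by edgeR. The median log2 fold change of the lists was 0.20 for exAM over tAM, -0.25 for texAM over exAM and 0.06 for exAM over HostAM, and over all tested genes it was -0.09, 0.11 and -0.08.

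Values for single genes below are means with the SD over 2 libraries, and each named difference passed the test. Genes that store and release the ligand went both ways. Of 5 tested ligand and latent complex genes 2 were higher in exAM than in tAM and 0 lower, beside 21.5% and 23.2% of all tested genes. Ltbp3, a latent TGF-beta binding protein, was at 28.9 ± 9.04 CPM in exAM, against 3.23 ± 0.847 CPM in tAM (adjusted p = 0.000881), and Lrrc32, which displays latent TGF-beta on the cell surface, at 14.2 ± 6.34 CPM in exAM, against 0.492 ± 0.368 CPM in tAM (adjusted p = 0.0107). Of 11 genes that activate latent ligand 5 were higher and 4 lower. The urokinase gene Plau was at 186 ± 62.3 CPM in exAM, against 17.0 ± 3.76 CPM in tAM, and the integrin Itgb3 at 88.5 ± 4.38 CPM in exAM, against 8.34 ± 3.10 CPM in tAM, while Itgb5 was lower at 96.4 ± 24.0 CPM in exAM, against 167 ± 0.849 CPM in tAM.

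Of 11 co-receptors and receptor regulators 6 were higher in exAM than in tAM and 2 lower, beside 21.5% and 23.2% of all tested genes. Among the higher ones Zfyve9, the SMAD anchor SARA, was at 83.9 ± 4.69 CPM in exAM, against 8.56 ± 0.0443 CPM in tAM. The co-receptor Cd109, which dampens signalling, was at 11.8 ± 1.19 CPM in exAM, against 0.353 ± 0.322 CPM in tAM, and Ldlrad4, an inhibitor of SMAD activation, was lower at 33.0 ± 4.98 CPM in exAM, against 52.1 ± 1.65 CPM in tAM. Of 11 inhibitors and ubiquitin ligases 5 were higher and 1 lower. Nedd4l, a ligase that targets activated SMAD2 and SMAD3, was at 116 ± 6.29 CPM in exAM, against 6.47 ± 1.52 CPM in tAM, a log2 fold change of 4.15 ± 0.31 (adjusted p = 4.11e-06), and Nedd4 was at 115 ± 56.6 CPM in exAM, against 3.29 ± 0.758 CPM in tAM. Peli1, a ligase that binds SMAD6, was lower at 57.6 ± 6.30 CPM in exAM, against 159 ± 20.3 CPM in tAM.

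Among 10 signal-transducing Smads and partners 1 was higher and 3 lower in exAM than in tAM, beside 21.5% and 23.2% of all tested genes. Runx3, a transcription factor that works with SMADs and is abundant in T cells, was at 1.05 ± 0.0366 CPM in exAM, against 16.5 ± 10.5 CPM in tAM, and Smad5, of the BMP branch, at 79.1 ± 2.31 CPM in exAM, against 107 ± 4.21 CPM in tAM. Of 7 genes of the branch that runs through TAK1 in place of SMADs 4 were higher and 1 lower, with the ligase Traf6 at 329 ± 90.5 CPM in exAM, against 120 ± 15.6 CPM in tAM and the TAK1 partner Tab1 at 7.14 ± 1.79 CPM in exAM, against 21.4 ± 4.54 CPM in tAM. Of 10 activin and BMP genes 3 were higher and 0 lower. Inhba, the activin A subunit, was at 383 ± 22.9 CPM in exAM, against 7.54 ± 4.59 CPM in tAM, a log2 fold change of 5.68 ± 0.41 (adjusted p = 3.62e-06), and the BMP receptor Bmpr1a at 136 ± 15.0 CPM in exAM, against 23.2 ± 3.05 CPM in tAM. In texAM Inhba was at 8.79 ± 2.09 CPM.

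Of 17 tested target genes 10 were lower and 6 higher in exAM than in tAM, beside 23.2% and 21.5% of all tested genes. The median log2 fold change was -0.77 over the target genes and -0.09 over all tested genes. The fibronectin gene Fn1 averaged 9.69 ± 9.34 CPM in exAM, against 1426 ± 115 CPM in tAM, where its reads came close to the ceiling. Id3, a target that BMP raises, was higher at 62.9 ± 2.94 CPM in exAM, against 3.72 ± 1.65 CPM in tAM, as was the cell cycle regulator Rgcc at 118 ± 2.26 CPM in exAM, against 18.0 ± 3.70 CPM in tAM. In texAM against exAM 9 targets were higher and 6 lower, beside 23.2% and 20.5% of all tested genes. The integrin Itgae, which TGF-beta induces in lymphocytes, was at 15.4 ± 1.58 CPM in texAM and 0.892 ± 0.0487 CPM in exAM. The summed level of 6 dendritic cell markers was 94.2 to 149 CPM in texAM, 53.3 to 74.3 CPM in exAM and 109 to 112 CPM in tAM. Most of the exAM sum was Clec9a, at 56.6 ± 11.2 CPM, with Flt3, Cd209a and Ccr7 at 0 counts. Of the 6 markers 4 were lower and 1 higher in exAM than in tAM, beside 23.2% and 21.5% of all tested genes. The part of RNA of other cells in the target genes was not tested. Pparg, the nuclear receptor named above, was at 181 ± 26.4 CPM in texAM, 238 ± 5.15 CPM in exAM and 201 ± 2.69 CPM in tAM (SD, n = 2 each). It did not pass the test for exAM over tAM (log2 fold change 0.25 ± 0.12, adjusted p = 0.122) and was lower in texAM than in exAM (-0.40 ± 0.12, adjusted p = 0.0235).

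**Figure D5:**
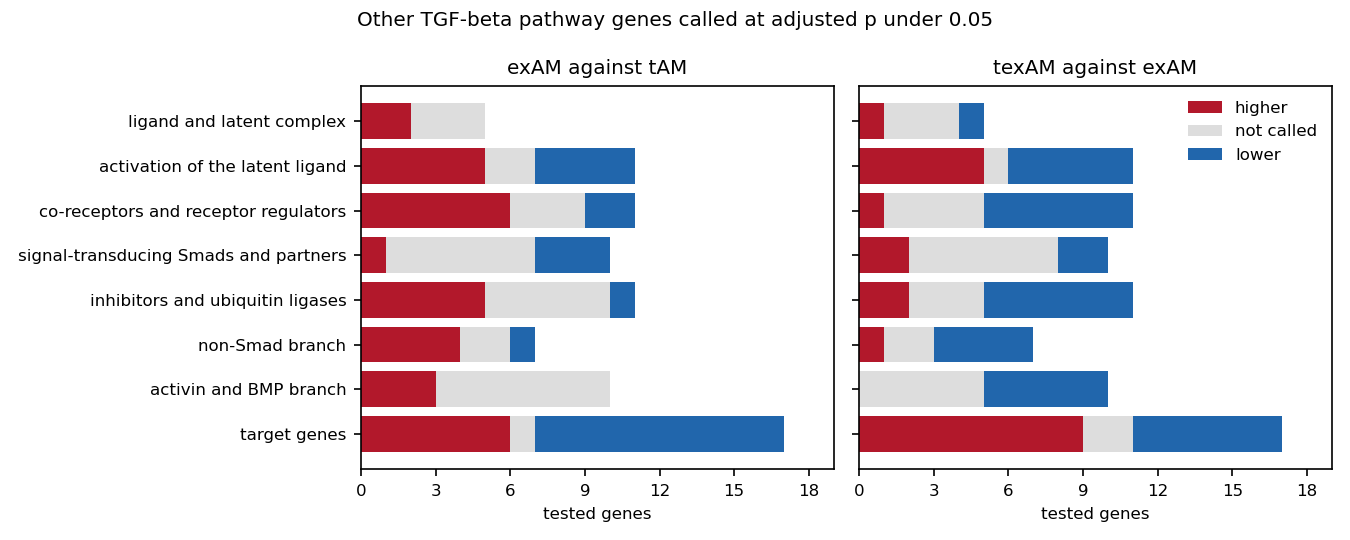
Number of tested genes (horizontal axis) in each of 8 lists of other pathway genes that were higher (red), not called (grey) or lower (blue) in exAM against tAM (left) and in texAM against exAM (right), by edgeR at an adjusted p under 0.05. Target genes are split 6 higher and 10 lower on the left and 9 higher and 6 lower on the right. Of all tested genes 21.5% were higher and 23.2% lower on the left, and 23.2% higher and 20.5% lower on the right.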

How the data were processed

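The deposited values are raw counts of reads per Ensembl gene. Per the submitters' processing notes, Bowtie, HTSeq 0.6.1 and R 3.3 were used with mm10 (GRCm38), and no parameters are given. Per the labels' protocols, 2 ng of RNA per pool went into Ovation RNA-seq V2 amplification. All 8 columns were matched to samples. The 2 libraries of a group are separate pools per the labels, and p-values measure only the spread between pools.

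Counts were analysed with edgeR 4.0.16 in R 4.3.3: filterByExpr with a minimum of 10 counts left 14537 genes, TMM scaling, and a robust quasi-likelihood fit with 1 coefficient per group over 8 libraries (4 residual degrees of freedom, biological coefficient of variation 0.22). CPM are counts scaled by the TMM-adjusted library size, given with the SD over 2 libraries. P-values were adjusted over all tested genes. Lengths and positions came from GENCODE M21 (GRCm38), which held 87.4% of the IDs. The fit was tested on simulated data. Alternatives were 2 other filters, 3 other scalings, the replicate block, DESeq2 1.42.0, fits of 4 libraries and leaving out each library. Members and lists were chosen with earlier results of these data known. From each list up to 2 of the largest called changes per direction with at least 10 CPM could be named, and the text gives those that describe each list. The single-gene result of 1 target gene is not reported here.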

Additional observations from a re-analysis of the deposited data

How the results depend on the processing

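Under the alternatives 656 of 711 values kept direction and side of the threshold, 21 passed it newly, 6 lost it and 28 turned direction. Pmepa1, Tgfb2, Smad3, Ski and Tgfbr2 were called in all 12 alternatives in each comparison with exAM. Members called ranged from 6 to 8 for exAM against tAM, 5 to 8 for texAM against exAM and 6 to 9 for exAM against HostAM. The causes of the shifts below were not tested.

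For texAM against tAM, genes called numbered 1, against 238 without a filter, 73 by DESeq2, 2 in a fit of 4 libraries and 0 with a replicate block; leaving out a library gave 0 to 2. Without a filter 1 member was called. For texAM against HostAM they numbered 48, against 694 without a filter, 106 with a minimum of 50 counts, 385 by DESeq2 and 29 with the replicate block; leaving out a library gave 1 (without texAM replicate 1) to 90 (without HostAM replicate 2), with 8 without texAM replicate 2 and 15 without HostAM replicate 1. Members called there were 2 without a filter, 1 at 50 counts and 1 by DESeq2. For tAM against HostAM they numbered 6, against 425 without a filter, 44 at 50 counts and 178 by DESeq2; leaving out a library gave 0 to 9, and members called were 1 without a filter and 1 by DESeq2.

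Small uncalled changes turned direction. Tgfb1 for exAM over tAM was -0.0030 without a filter, -0.017 at 50 counts, -0.19 on library totals alone and -0.0041 in the 4-library fit. On library totals alone Skil was -0.10 for exAM over tAM and 0.0025 for texAM over HostAM, and Tgfb1 was 0.072 for texAM over exAM and -0.15 for exAM over HostAM. Leaving out a library gave Tgfb1 -0.10 to 0.13 for exAM over tAM, Skil -0.0063 to 0.14 for texAM over exAM, Tgfbr1 -0.0020 to 0.14 for texAM over tAM, Tgfb1 -0.067 to 0.14 for exAM over HostAM, Tgfbr1 -0.40 to 0.0036 for exAM over HostAM, Skil -0.26 to 0.032 for exAM over HostAM, Tgfbr1 -0.0098 to 0.31 for texAM over HostAM, Smad6 -1.10 to 0.70 for texAM over HostAM, Pmepa1 -0.068 to 0.17 for texAM over HostAM, Skil -0.17 to 0.10 for texAM over HostAM, Tgfb1 -0.10 to 0.13 for tAM over HostAM, Tgfbr1 -0.076 to 0.25 for tAM over HostAM, Tgfbr2 -0.051 to 0.0022 for tAM over HostAM and Ski -0.11 to 0.036 for tAM over HostAM. Deviations of same-numbered libraries were nearly uncorrelated (correlations from -0.061 to 0.0089). With 2 libraries per group this cannot exclude a shared batch. The replicate block changed no other call count by over 1.5 times. Share of called genes higher in texAM than exAM was 53.1% and 68.1% on library totals alone, and for exAM against HostAM 47.3% and 35.2%. Smad6 was not tested at a minimum of 50 counts.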
